A study of Mus musculus with 9 samples.

Results

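The Myc, Max and Mxd network is a set of transcription factors that bind DNA as pairs, and its 10 members were taken by name as Myc, Mycn, Mycl, Max, Mxd1, Mxi1, Mxd3, Mxd4, Mnt and Mlx. All 10 were among the 37980 mouse genes counted and among the 11953 that passed the expression filter. RNA was sequenced from myeloid progenitors (MPs, Lin-ckit+Sca1- bone marrow cells) of C57BL/6 mice, with 4 NA MP samples and 5 WT MP samples of 100000 sorted cells each. In NA MPs the Nup98-Hoxa10hd fusion gene (NA) was carried by NA LSL/+; Vav-Cre donor cells, in which Vav-Cre, active in blood cells, switches the fusion on. The NA MP sort took Tdtomato+ cells of irradiated recipients given NA multipotent progenitors (MPPs), and the WT MP sort CD45.2+ cells of recipients given WT MPPs, 3 months after transplantation in the labels. The study's methods give a later time, and state that MPPs were injected together with bone marrow helper cells. They also describe recipients as CD45.2+, and elsewhere donor WT cells as CD45.1+, so the CD45.2+ sort may have taken cells other than donor cells and the origin of WT MPs cannot be told apart, nor is it stated whether each sample was 1 mouse. If samples shared mice, the p-values would measure only the spread between these samples.

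Myc, Mycn and Mycl each pair with Max at the E-box, a short DNA element, and raise genes for ribosome assembly, nucleotide synthesis and growth. Mxd1, Mxi1, Mxd3, Mxd4 and Mnt compete for Max and bring Sin3 histone deacetylase complexes to the same element, and Mlx is a Max relative that pairs with Mxd1, Mxd4, Mnt and the glucose-responsive Mondo proteins. In haematopoiesis Myc drives progenitor proliferation, Mycn is high in stem cells and early progenitors, and Mxd1 is known for its rise as myeloid cells mature.

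Between 5557719 and 8106141 counts per sample were recovered from the deposited values, so that 3 counts equalled 0.37 to 0.54 CPM (counts-per-million), a limit that covers counting error only. No pair of samples within a group was alike within counting noise (chi-square of 1.2 to 2.69 per degree of freedom). All NA MPs lay apart from all WT MPs on the first principal component (66.1% of the variance), and the second, with 6.18%, set NA MP sample 1 (19.3) apart from the other samples (-9.11 to 0.947). The fusion has no row of its own, and Hoxa10, the homeobox gene whose homeodomain it carries, had 17.5 to 23.4 CPM in NA MPs and 0.84 to 1.8 CPM in WT MPs. All 10 myeloid progenitor markers were detected, with a sum of 27595 to 30017 CPM in NA MPs and 26754 to 27762 CPM in WT MPs. At an adjusted p-value under 0.05 by edgeR, 6 of them were higher in NA MPs and 1 lower. Over all tested genes the shares were 17.9% and 16.3%. Markers of the labelled cell type were thus present in both groups, which does not show that the groups were alike in make-up. Among genes of cells removed by the sort, Cd3e was at 0 and Ly6g at 3 counts or fewer in every sample.

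The E-box itself, CACGTG, was sought in the promoters of the members, because members of the network are themselves proteins that bind it. RefSeq promoters of GRCm38.p6, of 300 bases (250 before and 50 after a transcript start), matched 9 of the 10 members, and Myc was not matched. The motif reads the same on both strands, and no other motif was searched. It occurred in the promoters of 4 members, Max, Mxd4, Mnt and Mlx, against 7.15% of the 32851 promoters in the set and 12.1% of the 9034 tested genes with a promoter. The 4 windows are shown 5′ to 3′ on the gene's strand, with up to 40 bases on each side of the motif in capitals. They were cut at the first base of the promoter, which shortens that of Mxd4, and just past the transcript start, which shortens that of Max.
Max, chr12:76962243-76962291, minus strand: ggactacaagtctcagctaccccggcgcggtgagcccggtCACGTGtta
Mxd4, chr5:34187884-34187960, minus strand: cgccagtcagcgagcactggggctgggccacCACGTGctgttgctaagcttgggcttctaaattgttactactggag
Mnt, chr11:74830761-74830846, plus strand: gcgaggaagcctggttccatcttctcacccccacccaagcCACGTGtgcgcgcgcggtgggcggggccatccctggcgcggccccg
Mlx, chr11:101087210-101087295, plus strand: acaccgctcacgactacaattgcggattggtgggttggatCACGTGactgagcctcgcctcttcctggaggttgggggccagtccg
The first base of the motif lay at -3 from the start of Max, -40 of Mlx, -123 of Mnt and -219 of Mxd4. Of the 4 genes, Mxd4 and Mnt were higher in NA MPs and Max and Mlx did not pass the test. Across the tested genes, 15.3% of the 1095 with the motif were higher in NA MPs and 18.9% lower, against 18.0% and 16.3% of the 7939 without it. A match describes these letters in this window and not a bound site.

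Mycn was the member that differed most. It was 2.16-fold higher in NA MPs, while the log2 fold change of the other 9 members was at most 0.32 in size. At an adjusted p-value under 0.05 (edgeR quasi-likelihood, Benjamini-Hochberg over all tested genes), 5 of the 10 members differed, against 34.1% of all tested genes. Of these, 4 were higher in NA MPs (Mycn, Mxd4, Mnt and Mxd1; background 17.9%) and Myc was lower (background 16.3%). The values of the 4 NA MPs did not overlap those of the 5 WT MPs for 5 members, against 26.4% of tested genes, namely Mycn, Mxd3 and Mxd4 on the higher side and Myc and Max on the lower. The median log2 fold change was 0.06 over the members and -0.001 over all tested genes, with 5 members above 0 and 5 below. As these are bulk samples, fewer cells of a type and less RNA per cell cannot be told apart.

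**Figure D1:**
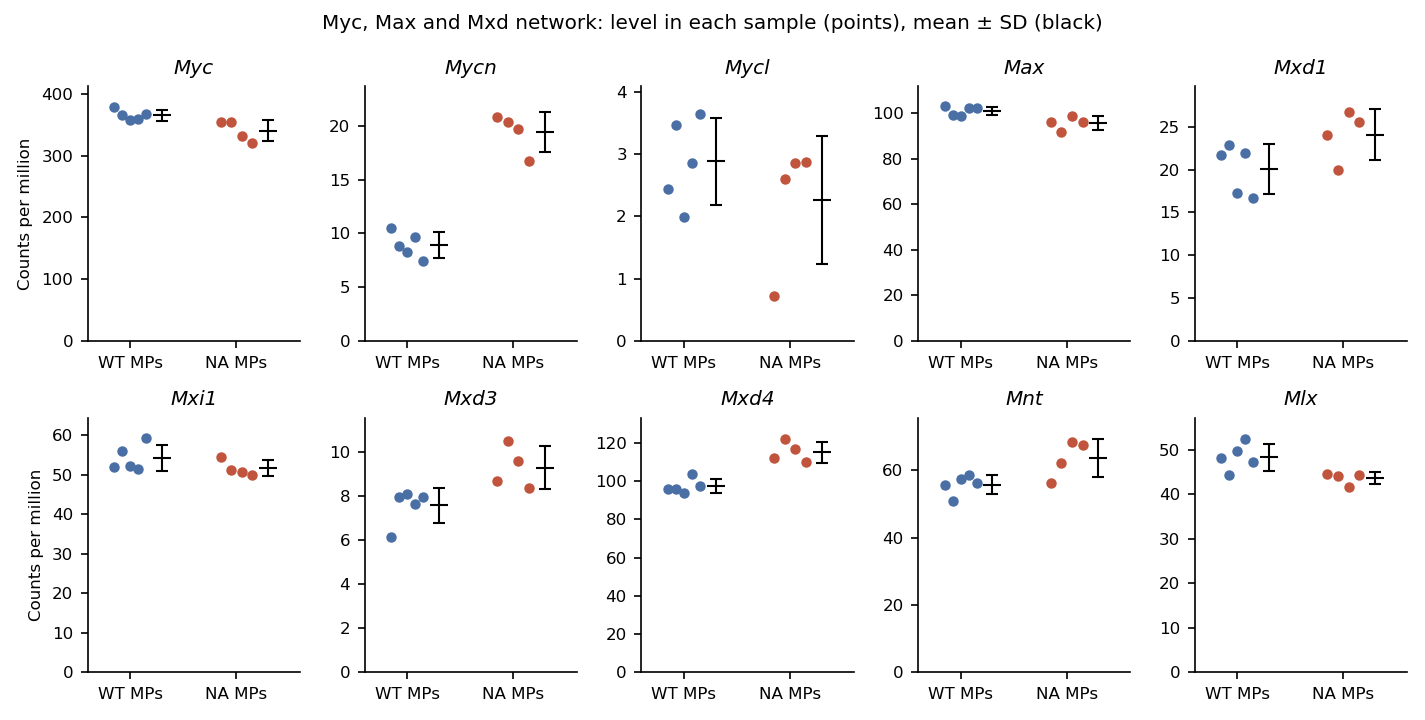
Level of the 10 members in each sample, in CPM on axes that start at 0, for WT MPs (blue, 5 samples) and NA MPs (red, 4 samples), with the mean ± SD in black. Mycn lies between 16.7 and 20.8 CPM in NA MPs and between 7.42 and 10.5 CPM in WT MPs, while the groups lie close together for the other members.

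Myc (ENSMUSG00000022346, chr15:61985391-61990374, plus strand) encodes c-Myc, the main driver of growth in the network. In the 4 NA MPs, in order of replicate number, it was at 354, 355, 332 and 321 CPM, and in the 5 WT MPs at 379, 365, 357, 359 and 367 CPM. Every NA MP lay below every WT MP, although NA MP sample 2 and WT MP sample 3 were only a few CPM apart. Means were 340.3 ± 16.5 CPM (SD, n = 4) and 365 ± 8.83 CPM (SD, n = 5), a fall of 6.92% and a log2 fold change of -0.10 (SE 0.031, 95% interval -0.17 to -0.04, adjusted p = 0.00719 by edgeR). The two-sided exact permutation test gave p = 0.0159, the smallest that 4 against 5 samples allow. Without NA MP sample 4 the log2 fold change was -0.08 and did not pass the test (adjusted p = 0.0741 by edgeR).

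Mycn (ENSMUSG00000037169, chr12:12936093-12941914, minus strand) encodes N-Myc, which can stand in for c-Myc in blood stem cells. It was at 20.8, 20.4, 19.7 and 16.7 CPM in NA MPs and at 10.5, 8.87, 8.26, 9.62 and 7.42 CPM in WT MPs. The groups were far apart, with the lowest NA MP well above the highest WT MP. Means were 19.4 ± 1.86 CPM (SD, n = 4) and 8.94 ± 1.2 CPM (SD, n = 5), and the log2 fold change was 1.11 (SE 0.11, 95% interval 0.89 to 1.33, adjusted p = 4.41e-12 by edgeR). The exact permutation test gave p = 0.0159. These levels rested on 115 to 134 counts per NA MP and 53 to 69 per WT MP. The size of the log2 fold change was above that of 96.5% of tested genes, and 4.14% of tested genes passed the test with a change over 2-fold. Mycn is also among the genes that the study chose to draw from these samples, so its direction here is not independent evidence.

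Mycl (ENSMUSG00000028654, chr4:122995652-123002485, plus strand) encodes L-Myc, which is best known in dendritic cells. It was near the limit of detection, at 4 to 23 counts per NA MP and 13 to 27 per WT MP. Its level was 0.725, 2.59, 2.86 and 2.87 CPM in NA MPs against 1.99 to 3.64 CPM in WT MPs, and the groups overlapped. The log2 fold change of -0.32 had a 95% interval from -0.84 to 0.21 (adjusted p = 0.381 by edgeR, exact permutation p = 0.46), so a change of the size of that of Mycn in the upward direction lay outside the interval. Without NA MP sample 1 the log2 fold change was -0.07.

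Max (ENSMUSG00000059436, chr12:76937269-76962201, minus strand) encodes the shared partner. It was at 96.2, 91.6, 98.9 and 96.1 CPM in NA MPs and at 103, 99.2, 98.9, 102 and 102 CPM in WT MPs. The groups just failed to overlap, as NA MP sample 3 and WT MP sample 3 round to the same level. The difference was small and did not pass the test (log2 fold change -0.08, 95% interval -0.16 to 0.01, adjusted p = 0.163 by edgeR). The exact permutation test of Max alone gave p = 0.0159, unadjusted.

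The antagonists came next, and 3 of the 5 were higher in NA MPs (background 17.9%). Of these, Mxd4 passed in all 21 alternative settings of the analysis, while Mnt lost its call in 1 and Mxd1 in 7. The fit without block on 8 samples is the same as that without WT MP sample 5. Both are counted among the 21, and among the 7 of Mxd1. Mxd4 (ENSMUSG00000037235, chr5:34173883-34187720, minus strand), a Max partner found in resting and differentiating cells, was at 112, 122, 117 and 109.9 CPM in NA MPs. In WT MPs it was at 95.8, 96.1, 94.0, 104 and 97.3 CPM. Every NA MP was above every WT MP. Means were 115 ± 5.38 CPM (SD, n = 4) and 97.4 ± 3.79 CPM (SD, n = 5), a rise of 18.2% (log2 fold change 0.24, SE 0.043, 95% interval 0.16 to 0.33, adjusted p = 9.79e-06 by edgeR, exact permutation p = 0.0159). Of its exon bases, 6.06% overlap Gm42846 on the opposite strand. Whether the counting used strand is not given in the sources used here.

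Mnt (ENSMUSG00000000282, chr11:74830920-74845725, plus strand), the antagonist that is present in cycling and resting cells alike, was at 56.2, 62.2, 68.3 and 67.5 CPM in NA MPs. It was at 55.6, 50.9, 57.4, 58.5 and 56.3 CPM in WT MPs. Samples 2, 3 and 4 of the NA MPs were above all WT MPs, and NA MP sample 1 lay within their range. The log2 fold change was 0.20 (SE 0.057, 95% interval 0.08 to 0.31, adjusted p = 0.00486 by edgeR, exact permutation p = 0.0635), and it was 0.08 (adjusted p = 0.282 by edgeR) after a correction for GC content and length.

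Mxd1 (ENSMUSG00000001156, chr6:86647042-86669161, minus strand), which rises in maturing myeloid cells, was at 24.1, 19.97, 26.7 and 25.6 CPM in NA MPs and at 21.7, 22.9, 17.3, 21.9 and 16.7 CPM in WT MPs. NA MPs 1, 3 and 4 were above all WT MPs, and NA MP sample 2 fell among them. The log2 fold change was 0.26 (SE 0.095, 95% interval 0.07 to 0.45, adjusted p = 0.0301 by edgeR, exact permutation p = 0.0952). The call was lost by DESeq2 (0.25, adjusted p = 0.137) and without NA MP sample 3 or 4 or WT MP sample 3 or 5 (0.20 to 0.22, adjusted p up to 0.119 by edgeR). It was also lost with the replicate number as a block, in a fit that leaves out WT MP sample 5 (0.19, adjusted p = 0.12 by edgeR).

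Mxd3 (ENSMUSG00000021485, chr13:55325168-55329823, minus strand), an antagonist tied to S phase, was at 8.7, 10.5, 9.58 and 8.36 CPM in NA MPs and 6.16, 7.97, 8.11, 7.66 and 7.98 CPM in WT MPs. All NA MPs were above all WT MPs, WT MP sample 1 being the lowest. Its log2 fold change of 0.28 was as large as that of Mxd1 or Mxd4, but its interval was wide (0.02 to 0.55) and it did not pass the test (adjusted p = 0.0949 by edgeR, exact permutation p = 0.0159). Mxi1 (ENSMUSG00000025025, chr19:53310518-53375810, plus strand), the antagonist also called Mxd2, was at 50.02 to 54.5 CPM in NA MPs and 51.4 to 59.2 CPM in WT MPs, with overlapping groups. Its log2 fold change was -0.08 (95% interval -0.19 to 0.04, adjusted p = 0.325 by edgeR, exact permutation p = 0.222). The exons of Mxd3 and Mxi1 overlap Prelid1 (4.43%) and Gm10197 (2.84%) on the opposite strand.

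Mlx (ENSMUSG00000017801, chr11:101087277-101092207, plus strand) was at 44.4, 44.1, 41.5 and 44.3 CPM in NA MPs and at 48.0, 44.3, 49.7, 52.4 and 47.2 CPM in WT MPs. WT MP sample 2 lay among the NA MPs and the other WT MPs were above them. The log2 fold change of -0.15 (SE 0.06, 95% interval -0.27 to -0.02) missed the threshold narrowly (adjusted p = 0.0555 by edgeR, exact permutation p = 0.0317). It passed with library size as the only scaling (-0.17, adjusted p = 0.0267 by edgeR) and after a correction for GC content and length (-0.23, adjusted p = 0.00154). Of the exon bases of Mlx, 19.3% overlap Psmc3ip on the opposite strand, so its counts are uncertain.

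**Figure D2:**
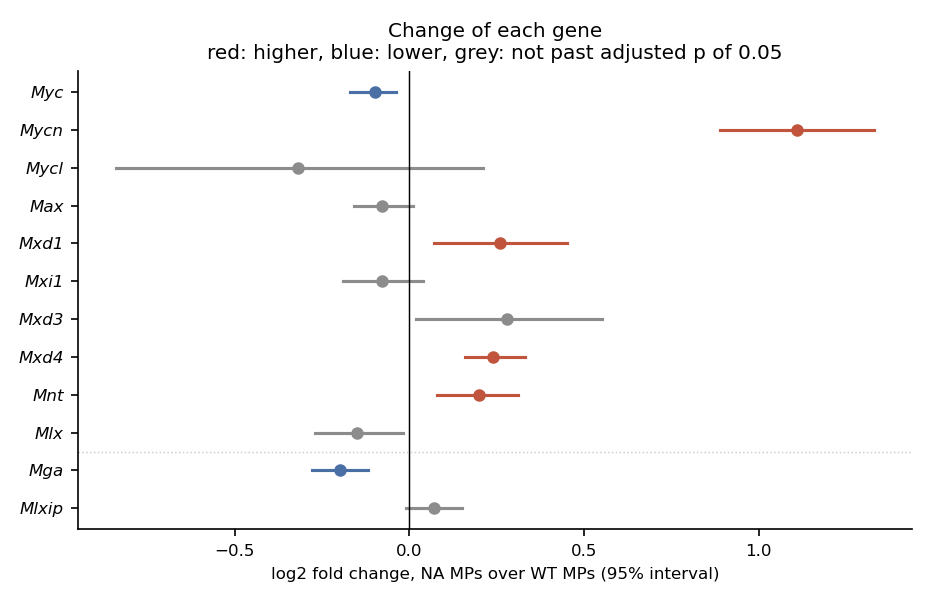
Log2 fold change of each member and of Mga and Mlxip, NA MPs over WT MPs, with its 95% interval, coloured red where higher, blue where lower and grey where the adjusted p-value did not pass 0.05. Mycn stands apart at 1.11, and the antagonists Mxd1, Mxd4 and Mnt lie between 0.20 and 0.26.

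Further proteins pair with Max or Mlx. Mga, the very large Max partner of a Polycomb complex, was lower in NA MPs, at 133 ± 7.15 CPM (SD, n = 4) against 153 ± 8.34 CPM (SD, n = 5). Its log2 fold change was -0.20 (SE 0.041, adjusted p = 0.000121 by edgeR), and the groups overlapped through WT MP sample 1, at 138 CPM. Mlxip, the Mondo partner of Mlx, was at 152 ± 8.24 CPM (SD, n = 4) and 145 ± 6.53 CPM (SD, n = 5) and did not pass the test (log2 fold change 0.07, adjusted p = 0.191 by edgeR). Mlxipl, the liver form, was below the filter at 0 to 8 counts.

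Levels of different genes were compared per length, as CPM per kilobase of annotated exon. In WT MPs the order was Myc (134 ± 3.25, SD, n = 5), Max (28.0), Mlx (24.2), Mnt (12.0), Mxd4 (11.5), Mxi1 (7.94), Mxd3 (3.20), Mxd1 (2.84), Mycn (2.71) and Mycl (0.713). The neighbours Mnt and Mxd4, Mxd3 and Mxd1, and Mxd1 and Mycn overlapped between samples and their order was within the spread. In NA MPs the order was unchanged except that Mycn, at 5.89 ± 0.565 CPM per kilobase (SD, n = 4), stood seventh, above Mxd3 (3.92) and Mxd1 (3.41). Its 4 samples (5.07 to 6.32) did not overlap those of Mxd3 (3.53 to 4.44). Per kilobase of the longest transcript, Mxd4 stood above Mnt in WT MPs (21.1 against 12.1).

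**Figure D3:**
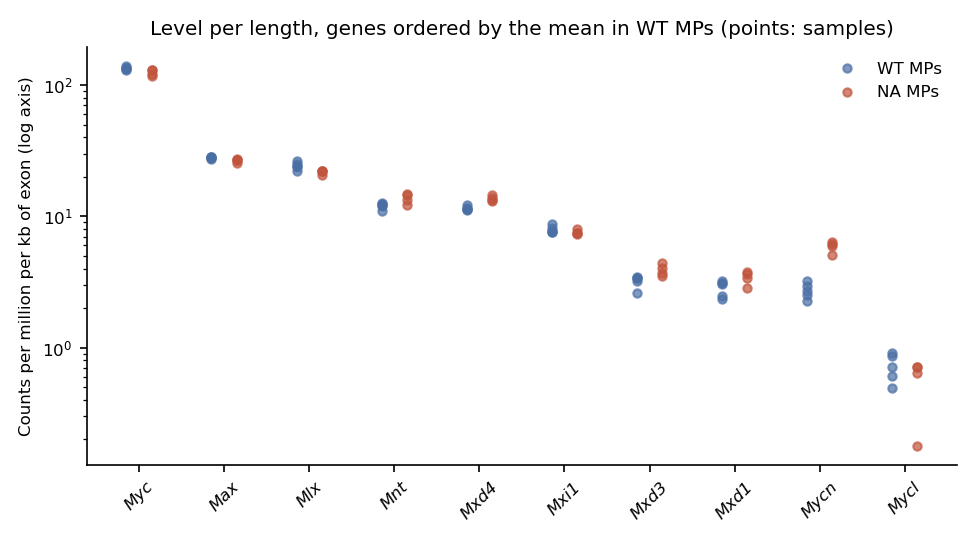
CPM per kilobase of exon for each member on a log axis, genes ordered by the mean in WT MPs, points being samples (WT MPs blue, NA MPs red). Myc exceeds all other members in both groups, and Mycn is the only gene whose NA MPs move up past 2 neighbours.

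Summed per kilobase, the 3 Myc genes were at 132 ± 6.4 in NA MPs (SD, n = 4) and 138 ± 3.35 in WT MPs (SD, n = 5), and the 5 antagonists at 42.2 ± 1.44 and 37.5 ± 0.853. The antagonist sum was thus 29.6%, 31.0%, 34.1% and 33.9% of the Myc family sum in the 4 NA MPs and 25.5% to 28.6% in WT MPs, without overlap. With longest transcripts in place of all exons the shares were 36.1% to 41.0% and 30.8% to 34.5%, again apart. Mycn made up 4.09% to 4.64% of the Myc family sum in NA MPs and 1.63% to 2.23% in WT MPs, so Myc itself remained by far the main transcript. Max was 20.2% and 20.4% of that sum on average. These sums describe RNA and were not tested, since they combine members already described.

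**Figure D4:**
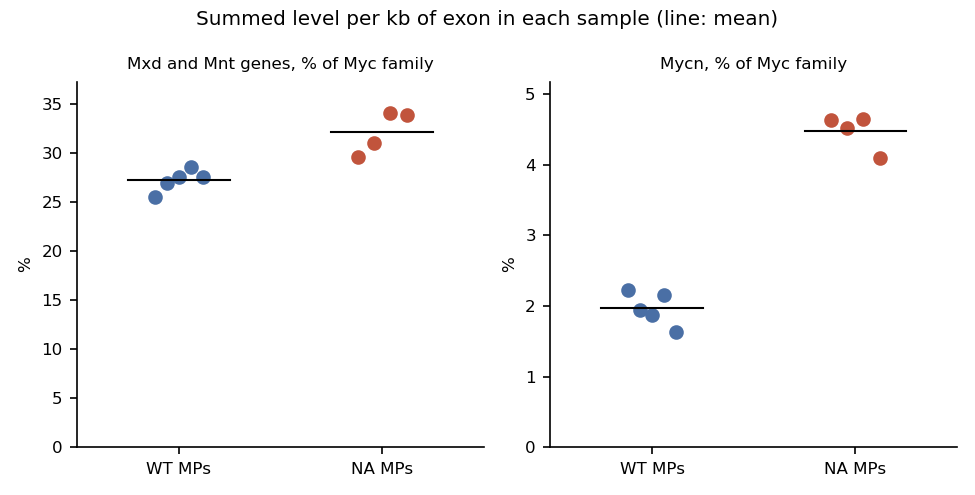
Summed level per kilobase of exon of the Mxd and Mnt genes (left) and of Mycn (right), as a percentage of the sum of Myc, Mycn and Mycl in each sample, with a line at the group mean. NA MPs lie above WT MPs in both, at a mean of 32.1% against 27.2% and of 4.47% against 1.97%.

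Of 17 coactivator genes, 5 were lower (29.4%; background 16.3%) and 1 higher in NA MPs (5.88%; background 17.9%), with a median log2 fold change of -0.02. Hcfc1, a cofactor that binds Myc, fell from 477 ± 5.80 CPM (SD, n = 5) to 432 ± 13.9 CPM (SD, n = 4), and the acetyltransferase Ep300 from 161 ± 7.08 to 147 ± 2.64 CPM (log2 fold changes -0.14 and -0.13, adjusted p = 3.98e-05 and 0.00481 by edgeR). Of 16 genes of the Sin3 corepressor, 2 were lower (12.5%) and 1 higher (6.25%), with a median of -0.02, the lower ones being the deacetylase Hdac2 and the corepressor Ncor1 (each -0.13, adjusted p = 0.00508 and 0.000246 by edgeR). Corrected for GC content and length, 7 coactivators (0 higher, 7 lower) and 7 Sin3 genes (3 higher, 4 lower) passed the test. Of the 11612 genes tested with that correction, 4248 passed.

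Of 18 genes that control the stability of Myc protein, 6 were lower (33.3%; background 16.3%) and 1 higher (5.56%; background 17.9%), with a median of -0.08. Skp2, a ubiquitin ligase subunit that targets Myc, fell from 39.0 ± 3.05 CPM (SD, n = 5) to 29.99 ± 1.30 CPM (SD, n = 4), by 0.38 on the log2 scale (SE 0.07, adjusted p = 1.87e-05 by edgeR). Cip2a, which shields Myc from the phosphatase PP2A, was lower as well (-0.23, adjusted p = 0.000292 by edgeR), while Ppp2r5a, a PP2A subunit, was higher by 0.10 (adjusted p = 0.0225 by edgeR). The members of this list act in opposite ways on Myc protein, which was not measured.

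Genes known to be raised by Myc were lower in NA MPs more often than higher. Of 30 genes of ribosome assembly, 14 were lower (46.7%; background 16.3%) and 0 higher by edgeR, with a median of -0.09 and small changes throughout. None was higher at an unadjusted p-value under 0.05, by DESeq2 or by limma either, which held for the polyamine and nucleotide genes too. The number of lower genes was 24 with the correction for GC content and length, 8 at an adjusted p-value under 0.01 and 9 without NA MP sample 2. Grwd1 and Utp20, which help to build ribosomal subunits, and Polr1a and Polr1b, the large subunits of RNA polymerase I, were lower by 0.23, 0.20, 0.18 and 0.15 on the log2 scale (adjusted p = 0.00249, 6.45e-05, 0.000275 and 0.00325 by edgeR). The list summed to 6951 to 7472 CPM in NA MPs and 7567 to 7759 CPM in WT MPs. Promoters of this list held the E-box in 6 of 24 genes (25.0%), against 12.1% of tested genes with a promoter. The share was 22.7% for polyamine and nucleotide genes, 27.3% for growth targets, 14.3% for repressed targets and 6.25% for coactivators. A link between the motif and the change of these genes was not tested.

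Of 24 genes of polyamine and nucleotide synthesis, 11 were lower (45.8%, background 16.3%) and 0 higher by edgeR, with a median of -0.08. With the correction for GC content and length, 15 were lower and 1 higher. Without NA MP sample 2, 9 were lower and 1 higher. Mthfd1, an enzyme of folate metabolism, fell from 273 ± 13.2 CPM (SD, n = 5) to 191 ± 9.34 CPM (SD, n = 4), by 0.51 on the log2 scale (SE 0.036, adjusted p = 1.13e-16 by edgeR). Ppat and Pfas, of purine synthesis, and Ctps, which makes CTP, were lower by 0.25, 0.21 and 0.24. Odc1, the classic E-box target of Myc, was named after its values were seen and did not pass the test, with a log2 fold change of -0.03. The list summed to 4077 to 4128 CPM in NA MPs and 4328 to 4415 CPM in WT MPs.

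Of 25 further targets with roles in growth, 12 were lower (48.0%; background 16.3%) and 5 higher (20%; background 17.9%), with a median of -0.12. Ccne1, the cyclin of S phase entry, was lower by 0.53 (adjusted p = 1.12e-06 by edgeR), the transferrin receptor Tfrc by 0.32 and the mitochondrial chaperonin Hspe1 by 0.26. E2f2, a cell cycle transcription factor, was higher by 0.46 (adjusted p = 0.000323 by edgeR). Tfrc also stands in the list of erythroid genes.

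Of 9 genes known to be repressed by Myc, 7 were tested. By edgeR 4 were higher (57.1%, background 17.9%) and 0 lower (background 16.3%), with a median of 0.20. At an unadjusted p-value under 0.05, by DESeq2 or by limma 0 were lower as well. With the correction for GC content and length, and also without NA MP sample 2, 4 were higher and 1 lower. Only 1 gene was higher without overlap between the groups. Cdkn1a, the p21 inhibitor of cyclin-dependent kinases, rose from 7.60 ± 1.26 CPM (SD, n = 5) to 15.8 ± 3.94 CPM (SD, n = 4), by 1.06 on the log2 scale (SE 0.145, adjusted p = 8.28e-07 by edgeR). Of its exon bases, 7.68% overlap another gene on the opposite strand. Of 3 targets of Mlx and its Mondo partners, Txnip, which limits glucose uptake, was higher by 0.24 (adjusted p = 0.021 by edgeR), and 19.4% of its exons overlap Gm15441. Its level was 275 CPM in NA MP sample 1 and 218 to 225 CPM in the other NA MPs. None of the 3 targets passed the test with the correction for GC content and length, at a threshold of 0.01, or without WT MP sample 1 or 5.

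**Figure D5:**
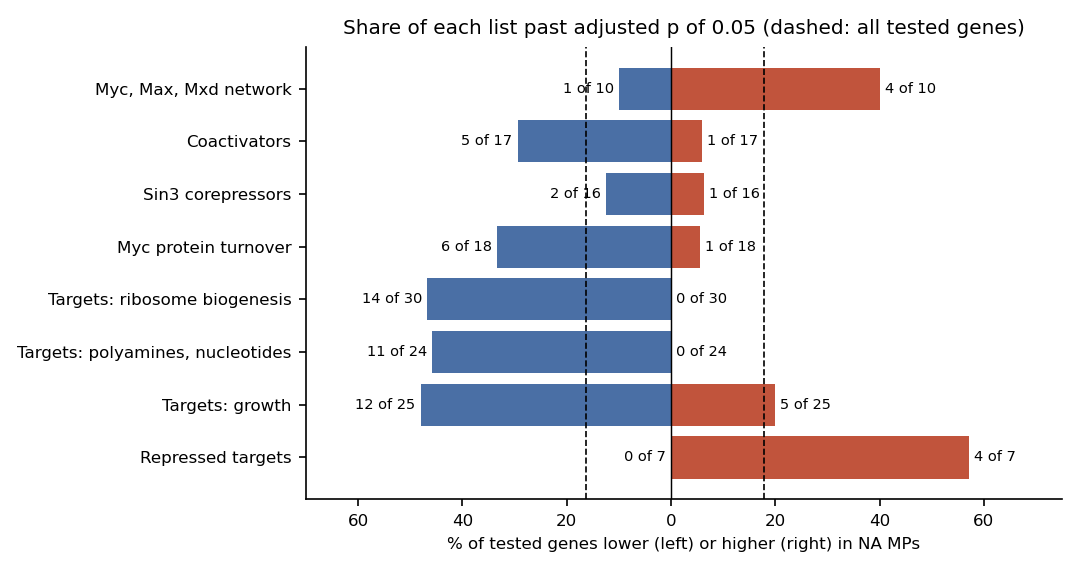
Share of the tested genes of each list that were lower (blue, left) or higher (red, right) in NA MPs at an adjusted p-value under 0.05, in percent, with counts beside the bars and dashed lines at the shares over all tested genes (16.3% lower and 17.9% higher). The 3 lists of activated targets reach 45.8% to 48.0% on the lower side, and the repressed targets 57.1% on the higher side.

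Other gene groups moved with the same contrast, and their part in the values of the network was not tested. Of 18 proliferation genes, 11 were lower (61.1%, background 16.3%) and 0 higher (background 17.9%) by edgeR, with a median of -0.13. Their sum was 4283 to 4584 CPM in NA MPs and 4873 to 5022 CPM in WT MPs. At an unadjusted p-value under 0.05, by DESeq2 and by limma 0 were higher as well. Mki67 was lower by 0.43 (adjusted p = 3.92e-18 by edgeR). Immediate early genes respond within minutes to stimuli and to cell handling. Of 15 such genes, 13 were tested and all 13 were higher (background 17.9%), with a median of 2.49. Their sum was 2877, 1961, 4056 and 4346 CPM in NA MPs and 420.2 to 899 CPM in WT MPs.

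Markers of other cell types differed as well, against a background of 17.9% higher and 16.3% lower over all tested genes. All 11 pro-B and pre-B genes were higher in NA MPs, with a median of 3.40 and a sum of 207, 363, 368 and 276 CPM against 53.3 to 60.5 CPM in WT MPs. Of 14 tested erythroid genes, 12 were lower and 0 higher by edgeR, with a median of -0.88 (sum 955 to 1218 CPM against 1778 to 1986 CPM), and 1 was higher at an unadjusted p-value under 0.05 and 0 by DESeq2 or limma. Mast cell and basophil genes were mostly higher (6 of 8, 1 lower, median 1.15, sum 571 to 657 against 401 to 441 CPM) and eosinophil genes mostly lower (4 of 6 tested, 1 higher, median -0.76, sum 138 to 232 against 236 to 293 CPM). Of 11 monocyte or macrophage genes, 6 were higher and 2 lower (median 0.41, sum 1225 to 1455 against 1224 to 1275 CPM), and of 11 tested neutrophil genes, 4 and 2 (median 0.31, sum 663 to 1011 against 603 to 682 CPM). Of 6 tested dendritic cell genes, 3 were higher and 1 lower (median 0.31, sum 222 to 241 against 178 to 195 CPM), and of 7 tested megakaryocyte genes, 1 and 3 (median -0.42, sum 214 to 248 against 214 to 240.2 CPM). Of 7 T cell genes only Lck passed the filter, with a list sum of 6.88 to 9.98 against 1.67 to 2.8 CPM, and Cd3e, Cd3g and Trac were at 0 in all samples.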

How the data were processed

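RNA-seq of 4 NA MP and 5 WT MP samples was used. The deposited values were named by the labels as coming from RSEM, with DESeq2 and the mm10 build also named, and versions are not given in the sources used here. The authors deposited expected counts of 37980 genes, each sample divided by a constant, so that a count was worth 0.82656 (NA MP 4) to 1.20044 (NA MP 1), within 0.168% of a median-of-ratios size factor. Dividing by it made 97.2% to 97.6% of values above 0 whole within 0.01, against 1.7% to 30.7% as deposited. These recovered expected counts were rounded and tested with edgeR 4.0.16 in R 4.3.3 (TMM, filterByExpr with a minimum count of 10, robust quasi-likelihood test, Benjamini-Hochberg adjustment, threshold 0.05). The biological coefficient of variation was 3.49%. For single members, a two-sided exact permutation test went through all 126 splits into 4 and 5 samples. On simulated data with 200 genes among 11953 changed by 1 or 2 on the log2 scale, edgeR recovered 97% with 4.43% false calls. Smaller changes, such as those of all members but Mycn, were not simulated, so their recovery is not known.

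Names, lengths, coordinates and overlaps came from GENCODE M21 (GRCm38) and matched 32916 genes. Promoters came from RefSeq. Named list genes were at most 4 per list (3 for markers), those with the largest change that passed the threshold, had no overlap of the groups and had an average log2 CPM of at least 1. Hoxa10, Odc1, Mlxipl, Mga, Mlxip and genes at 0 were named outside this rule. The members and lists were chosen with earlier results of these data known.

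Alternatives were other normalizations, filters, thresholds and lengths, DESeq2 1.42.0, a replicate block, a correction for GC content and length, and leaving out each sample. The deposited values rounded, limma 3.58.1 on their log2, and a fit without block on 8 samples were added after seeing the data.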

Additional observations from a re-analysis of the deposited data

Results flagged for a closer look

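In 13 of 132 groups of 4 or 5 samples checked, the highest or lowest sample lay far from the others by Dixon's criterion, where chance flags about 1 in 20, or 6.6 groups. Among the members this held for 3 of 20 groups. Mycl was at 0.725 CPM in NA MP sample 1 against 2.59 to 2.87 in the other NA MPs. Mlx was at 41.5 CPM in NA MP sample 3 against 44.1 to 44.4, and Mxd3 at 6.16 CPM in WT MP sample 1 against 7.66 to 8.11.

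In NA MP sample 1, which the second principal component set apart, Mlxip was at 139.7 CPM (others 156 to 157), Polr1b at 104 CPM (97.0 to 97.7) and Txnip at 275 CPM (218 to 225), and the summed Mlx targets reached 396 CPM (340.3 to 347). In WT MP sample 1, Mga was at 138 CPM (154 to 159), Ncor1 at 439 CPM (472 to 474) and Tfrc at 286 CPM (302 to 308). Grwd1 was at 38.0 CPM in NA MP sample 4 (46.6 to 47.1), Hcfc1 at 488 CPM in WT MP sample 3 (473 to 476), and the summed polyamine and nucleotide genes at 4128 CPM in NA MP sample 3 (4077 to 4084).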

How the results depend on the processing

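Of 21 alternatives per member (20 for Mycl, which the filter of 10 counts in every sample removed), none reversed a direction. These count the fit without block on 8 samples and the same fit without WT MP sample 5 separately. Mycn (1.03 to 1.19) and Mxd4 (0.21 to 0.27) passed in all, and Mxi1, Mxd3 and Mycl in none. Mxd1 was lost by DESeq2 (0.25). Mlx passed by library size (-0.17), with deposited values rounded (-0.15), by limma (-0.15) and with the GC and length correction (-0.23), under which Max also passed (-0.11) and Mnt was lost (0.08). With that correction 1644 genes were higher and 2604 lower (2134 and 1944 otherwise), 7 Sin3 genes, 24 ribosome genes and 0 Mlx targets passed, and the median of all genes shifted by -0.031. At a threshold of 0.01, 2 coactivators, 4 turnover genes, 8 ribosome genes and 0 Mlx targets passed, and by DESeq2 4 turnover genes. Among all genes, 2886 passed at 0.01 and 3043 by DESeq2. The cause of these changes was not tested.

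Leaving out each sample gave 3 to 6 members (3 without NA MP sample 4), Myc -0.12 to -0.08, Mxd1 0.20 to 0.34, Mycl -0.47 to -0.07 (-0.07 without NA MP sample 1), Mlx -0.18 to -0.11 (passing without WT MP sample 2), 3 to 6 coactivators (3 without WT MP sample 5), 2 to 5 Sin3 genes (5 without NA MP sample 1), 9 to 15 ribosome genes (9 without NA MP sample 2) and 0 to 2 Mlx targets (0 without WT MP sample 1 or 5, 2 without WT MP sample 4). Among all tested genes, 3638 to 3959 passed when each sample was left out. Per kilobase of longest transcript WT MP levels were 156 for Myc, 3.34 for Mycn, 52.0 for Max, 4.31 for Mxd1, 10.8 for Mxi1, 4.35 for Mxd3 and 21.1 for Mxd4.

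Same-numbered samples did not deviate together (correlations -0.0193 to 0.0526, 1 of 4 best with its own number), so the numbers were not read as pairs. With the replicate block 3724 genes passed, against 3711 for the same 8 samples without it, Mxd1 was at 0.19 and 0.20 and lost its call in both, 3 coactivators passed in both, and 1 and 0 Mlx targets. Depth limits Mycl most, at 4 counts in 1 sample.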
